A study of Mus musculus with 18 samples.

Results

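The imprinted domain of distal mouse chromosome 12 was examined in differentiating mouse embryonic stem cells through 6 of its transcripts, Dlk1, Rtl1, Dio3, Meg3, Rian and Mirg. They are the rows of the deposited expression table that carry these gene names, 6 of 54532 genes. RNA was sequenced from ES-E14TG2a cells, a line taken from a mouse blastocyst, in 3 lines named Arf-B, Arf-C and Ctrlv2. Each line was sampled at day 0, in stem cell culture with serum and LIF, and at day 8 of a differentiation, with 3 libraries in each of the 6 groups. All day 8 cells had received activin A and Matrigel from day 0, and retinoic acid with FGF10 from day 4 to day 8. In its title the series refers to p19Arf, a tumour suppressor protein of the Cdkn2a gene, and to pancreatic differentiation. All 18 libraries carry the genotype label wild type, and the sources used here do not give how Arf-B and Arf-C were made or whether each is 1 clone. Nothing states that the 3 libraries of a group came from separate cultures, so the p-values measure the spread between these libraries, which may be technical.

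The domain is imprinted, which means that its genes are read mainly from the chromosome of 1 parent. Dlk1, Rtl1 and Dio3 encode proteins and are expressed from the paternal chromosome, while Meg3, Rian and Mirg are long noncoding RNAs expressed from the maternal chromosome. A differentially methylated region between Dlk1 and Meg3, methylated on the paternal chromosome, governs which set is read. The noncoding transcripts carry clusters of small nucleolar RNAs and microRNAs, and loss of Meg3 expression in mouse pluripotent cells is known to go with a reduced capacity to form whole embryos. The table does not separate the parental copies, so all values below are totals over both.

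In the mm10 assembly (GRCm38) Dlk1 lies at chr12:109452823-109463336, Meg3 at chr12:109541001-109571726, Rian at chr12:109603940-109661716 and Mirg at chr12:109729764-109749460, all on the plus strand. Rtl1 lies at chr12:109589193-109600330 on the minus strand, between Meg3 and Rian, and Dio3 at chr12:110279068-110281097 on the plus strand. Counted from the start of Meg3, Dlk1 starts at -88.2 kb and Dio3 at 738.1 kb. The promoter windows of Dlk1, Meg3 and Dio3 are shown because their transcripts moved differently between lines. Each window runs from 250 bases before to 50 after the start, as RefSeq gives it on GRCm38.p6, plus strand. Capitals mark 5 motifs searched on both strands. The letters TATAAA are the core promoter box of that name, CCAAT is bound by NF-Y, GGGCGG is the GC box bound by Sp1, AGGTCA is a core site of nuclear receptors and TGCCGC is the motif of ZFP57, a protein that guards imprints.
Dlk1, chr12:109452573-109452872: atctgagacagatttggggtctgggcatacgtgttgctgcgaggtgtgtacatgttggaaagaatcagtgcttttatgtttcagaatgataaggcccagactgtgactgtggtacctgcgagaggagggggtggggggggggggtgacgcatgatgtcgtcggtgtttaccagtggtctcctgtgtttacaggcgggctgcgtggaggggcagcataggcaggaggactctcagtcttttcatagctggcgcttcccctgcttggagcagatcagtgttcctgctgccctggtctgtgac
Meg3, chr12:109540746-109541045: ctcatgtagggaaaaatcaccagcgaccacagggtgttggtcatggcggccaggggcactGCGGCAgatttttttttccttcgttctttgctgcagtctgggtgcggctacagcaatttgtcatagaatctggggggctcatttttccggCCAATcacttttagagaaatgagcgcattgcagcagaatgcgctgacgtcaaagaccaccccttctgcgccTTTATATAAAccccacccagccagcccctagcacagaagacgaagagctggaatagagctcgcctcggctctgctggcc
Dio3, chr12:110278980-110279279: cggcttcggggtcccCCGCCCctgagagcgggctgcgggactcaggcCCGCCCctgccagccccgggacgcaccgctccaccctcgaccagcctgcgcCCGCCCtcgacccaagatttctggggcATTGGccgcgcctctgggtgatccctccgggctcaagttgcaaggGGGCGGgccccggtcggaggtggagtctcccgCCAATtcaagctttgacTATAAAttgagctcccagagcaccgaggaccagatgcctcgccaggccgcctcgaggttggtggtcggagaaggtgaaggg
The Dlk1 window holds 0 of these motifs and 9 CG dinucleotides at 55.7% GC. The Meg3 window holds 13 CG at 53.7% GC, with a TATA box read on both strands of the same overlapping letters, 1 CCAAT box and 1 ZFP57 motif. The Dio3 window holds 25 CG at 69% GC, with 1 TATA box, 2 CCAAT boxes and 4 GC boxes. Over the 32851 promoter windows of the RefSeq table, 13.6% hold the TATA motif, 37.4% the CCAAT motif, 35.7% the GC box, 16.3% the nuclear receptor site and 11.6% the ZFP57 motif. The table has a second Meg3 start and starts for Rian and Mirg, which are not printed, and Rtl1 was not matched in it.

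The microRNAs of the domain are shown as sequences because the polyadenylated RNA measured here reports their host transcripts and not the mature molecules. RefSeq places 113 mature names between Begain and Ppp2r5c, with 104 distinct seeds (bases 2 to 8, in capitals), of which 9 are shared by 18 names. Of these names 3 lie inside Meg3, 13 inside Rtl1, 6 inside Rian and 26 inside Mirg. The microRNAs inside Rtl1 that are shown read on the strand opposite to Rtl1, where they pair perfectly with its RNA.
miR-431-5p: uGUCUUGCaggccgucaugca
miR-433-3p: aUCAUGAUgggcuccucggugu
miR-127-3p: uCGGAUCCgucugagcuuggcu
miR-434-3p: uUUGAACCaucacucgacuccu
miR-136-5p: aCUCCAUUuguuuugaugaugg
Inside Mirg, miR-453 and miR-496a-5p share the seed GGUUGCC, and miR-410-5p shares GGUUGUC with miR-494-5p, which lies between Rian and Mirg.
miR-453: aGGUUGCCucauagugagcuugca
miR-496a-5p: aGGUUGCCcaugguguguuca
miR-410-5p: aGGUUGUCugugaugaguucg
miR-494-5p: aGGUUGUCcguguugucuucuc
miR-134-5p: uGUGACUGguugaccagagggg
MiR-370-5p, inside Rian, shares the seed AGGUCAC with miR-1193-3p, which lies between Rian and Mirg.
miR-370-5p: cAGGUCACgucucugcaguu
miR-1193-3p: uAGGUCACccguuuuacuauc

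Expression is given as FPKM, fragment counts divided by gene length and by library size. Library depth was 10432590 to 33311220 reads counted on genes, and 3 reads on a gene of 1 kb equal 0.093 to 0.282 FPKM. At day 0 all 8 pluripotency markers had reads, with summed levels of 4214 to 4511 FPKM in Arf-B, 4125 to 4986 in Arf-C and 4847 to 4925 in Ctrlv2. By day 8 this sum was 661.3 to 903.9 in Arf-B, 549.6 to 933.2 in Arf-C and 107 to 134.6 in Ctrlv2. Dppa5a was its largest single part on both days. Its mean at day 0 was 2434 FPKM in Arf-B, 2402 in Arf-C and 2763 in Ctrlv2, and at day 8 557.6, 535.8 and 69 FPKM in Arf-B, Arf-C and Ctrlv2. Klf2 went the other way between lines at day 0, at 314 FPKM in Arf-B, 386.1 in Arf-C and 166.3 in Ctrlv2. Summed markers of parietal and primitive endoderm were 118.3 to 120.3 FPKM in Arf-B, 124.2 to 133.5 in Arf-C and 403.5 to 539.8 in Ctrlv2 at day 8, with reads on all 8 markers in each line. The 8 pancreatic progenitor markers summed to 6.49 to 8.23 FPKM in Arf-B, 6.09 to 7.41 in Arf-C and 7.18 to 8.82 in Ctrlv2 at day 8, against 2.16 to 3.1, 2.39 to 2.88 and 2.8 to 3.7 FPKM in Arf-B, Arf-C and Ctrlv2 at day 0. Single markers went different ways between lines at day 8. Pdx1 averaged 0.506 FPKM in Arf-B, 0.363 in Arf-C and 0.137 in Ctrlv2. Prox1 averaged 1.30 FPKM in Arf-B, 1.36 in Arf-C and 2.89 in Ctrlv2. Most of the day 0 sum was Hhex, at 2.27 FPKM in Arf-B, 2.36 in Arf-C and 3.14 in Ctrlv2. At day 8 Hhex averaged 1.72 FPKM in Arf-B, 1.71 in Arf-C and 2.02 in Ctrlv2. Cdkn2a, the gene of p19Arf, stood at 42.7 ± 2.33 FPKM in Arf-B, 44.1 ± 1.96 in Arf-C and 32.9 ± 1.22 in Ctrlv2 at day 8 (SD, n = 3 each), and at 1.985 ± 0.269 in Arf-B, 2.29 ± 0.0982 in Arf-C and 2.72 ± 0.752 in Ctrlv2 at day 0.

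All 6 transcripts passed the filter of at least 0.5 FPKM in at least 3 libraries and were tested with limma on log2(FPKM + 1) among 17200 genes. A gene was called at a Benjamini-Hochberg adjusted p below 0.05. The percentage in brackets after each count is the share of all 17200 genes called the same way. Between day 8 and day 0, 5 of the 6 were called in Arf-B (66.7%), 4 higher (32.9%) and 1 lower (33.8%). In Arf-C all 6 were called (66.6%), 4 higher (32.8%) and 2 lower (33.8%). In Ctrlv2 all 6 were called (68.3%), 6 higher (33.9%) and 0 lower (34.4%). At day 8 the comparison of Arf-B with Ctrlv2 called 4 (33.2%), 1 higher (16.3%) and 3 lower (16.9%), and that of Arf-C called 5 (33.6%), 1 higher (16.8%) and 4 lower (16.8%). At day 0 the comparison of Arf-B with Ctrlv2 called 3 (39%), 3 higher (19.1%) and 0 lower (20%), and that of Arf-C called 4 (42.8%), 3 higher (21.2%) and 1 lower (21.5%). These shares of all genes are large, so the counts alone do not set the 6 transcripts apart. Both Arf comparisons use the same 3 Ctrlv2 libraries, so they are not independent. Against Ctrlv2 at day 8 the 6 had a median log2 fold change of -0.26 for Arf-B and -0.40 for Arf-C, beside 0.01 in each case over all genes tested. At day 0 the median of the 6 was 0.18 for Arf-B and 0.15 for Arf-C, beside 0.00 in each case over all genes.

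**Figure D1:**
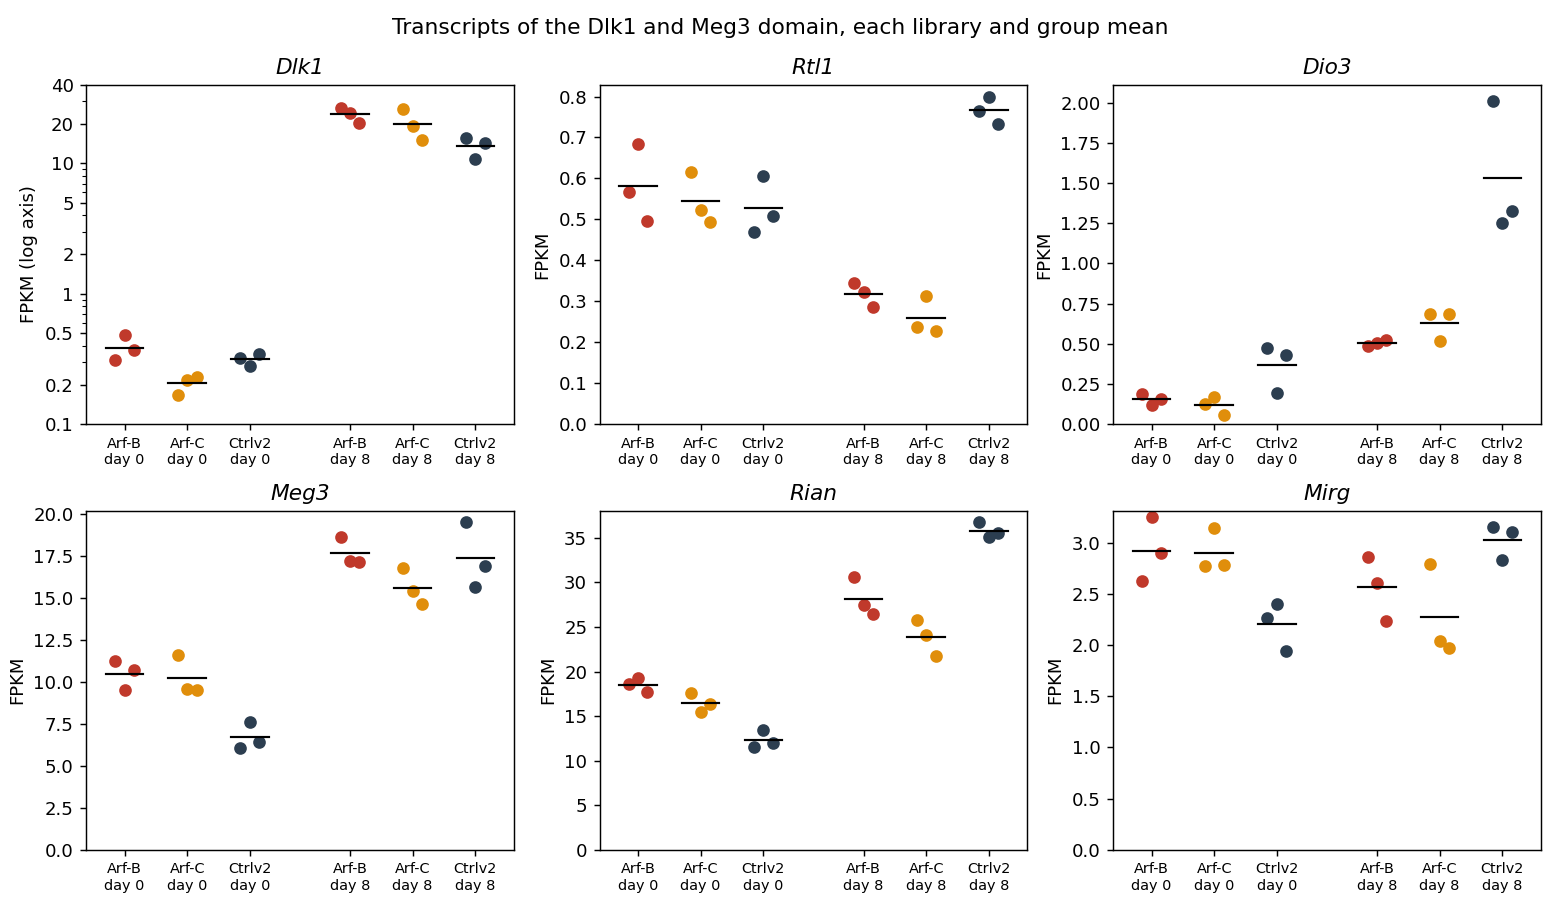
FPKM of the 6 transcripts in each of the 18 libraries (points) with the mean of each group (bars), on a log axis for Dlk1 and linear axes from 0 for the others. Dlk1 is high in all day 8 libraries, Rtl1 and Dio3 are highest in Ctrlv2 at day 8, and Meg3, Rian and Mirg have their lowest group mean in Ctrlv2 at day 0.

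Dlk1 encodes a membrane protein with EGF repeats, related to Notch ligands, that can be shed and holds back the differentiation of fat cell precursors. It showed the largest change of the 6 with time in each line. At day 8 its level was 26.6, 24.25 and 20.5 FPKM in Arf-B libraries, 26.1, 19.3 and 15.1 in Arf-C, and 15.6, 10.85 and 14.3 in Ctrlv2. At day 0 it was 0.308, 0.48 and 0.372 FPKM in Arf-B libraries, 0.1675, 0.218 and 0.2315 in Arf-C, and 0.321, 0.28 and 0.345 in Ctrlv2. Day 8 and day 0 libraries did not overlap in any line, and the ratio of mean FPKM was 61.6 in Arf-B, 98 in Arf-C and 43 in Ctrlv2. On the log2(FPKM + 1) scale Dlk1 rose by 4.15 in Arf-B (SE 0.154, adjusted p = 1.62e-12), by 4.10 in Arf-C (adjusted p = 1.84e-12) and by 3.46 in Ctrlv2 (adjusted p = 1.08e-11). Dlk1 passed the filter of 0.5 FPKM only through its day 8 libraries, as every day 0 library lay below it. The filter thus favoured a rise with time for Dlk1. At day 8 the Arf-B libraries all lay above the Ctrlv2 libraries, and 2 of the 3 Arf-C libraries did. The difference from Ctrlv2 at day 8 was 0.77 in Arf-B (adjusted p = 0.00111) and 0.52 in Arf-C (adjusted p = 0.016). In Arf-C that call was lost without Arf-C replicate 1 or without Ctrlv2 replicate 2 (adjusted p = 0.0876 each), and with a fit on these groups alone (0.115). The 3 Arf-C libraries of day 0 lay below all Ctrlv2 libraries, while Arf-B and Ctrlv2 overlapped. At day 0 Dlk1 was not called in either line, with differences of 0.07 for Arf-B (95% interval -0.25 to 0.40) and -0.13 for Arf-C (-0.45 to 0.20).

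Dio3 encodes the type 3 deiodinase, which inactivates thyroid hormone. It had few reads, 3 to 28 per library at day 0 and 18 to 63 at day 8. At day 8 its level was 0.4875, 0.5035 and 0.523 FPKM in Arf-B libraries, 0.685, 0.518 and 0.682 in Arf-C, and 2.01, 1.25 and 1.32 in Ctrlv2. Every Ctrlv2 library lay above every Arf library at that day. The log2 difference was -0.74 in Arf-B (SE 0.109, adjusted p = 8.35e-05) and -0.62 in Arf-C (adjusted p = 0.000371). Mean FPKM in Arf-B was 0.33 times, and in Arf-C 0.411 times, that of Ctrlv2. At day 0 its level was 0.187, 0.12 and 0.158 FPKM in Arf-B libraries, 0.122, 0.169 and 0.05865 in Arf-C, and 0.472, 0.195 and 0.4275 in Ctrlv2. Dio3 rose with time in each line, by 0.38 in Arf-B (adjusted p = 0.00556), 0.54 in Arf-C (0.00035) and 0.88 in Ctrlv2 (2.18e-06). No day 0 library reached the 0.5 FPKM of the filter, so Dio3 was tested only through its day 8 levels. The filter thus favoured a rise with time for Dio3. At day 0 the Arf-C difference of -0.29 was called (adjusted p = 0.0453), but among the 18 fits that each left out 1 library 13 lost it (adjusted p 0.0156 to 0.168), as did thinned reads (0.0796), no filter (0.0724) and the same sum (0.0731). The fits that kept it left out Ctrlv2 day 0 replicate 2, any day 8 replicate of Ctrlv2, or Arf-C day 8 replicate 2. In Arf-B the day 0 difference of -0.24 was not called (adjusted p = 0.102), yet it was with a pseudocount of 0.1 (0.0305), with voom on whole reads (0.0455), without Ctrlv2 day 0 replicate 2 (0.0344) and without Ctrlv2 day 8 replicate 1 (0.0442).

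Dio3os starts close to Dio3 on the opposite strand, chr12:110275385-110278172. At day 8 it stood at 0.125 ± 0.0972 FPKM in Arf-B, 0.253 ± 0.0425 in Arf-C and 0.667 ± 0.0866 in Ctrlv2 (SD, n = 3), from 14, 21 and 43 reads in all. The log2 difference from Ctrlv2 was -0.57 in Arf-B (adjusted p = 0.000165) and -0.41 in Arf-C (0.00234), the same sign as Dio3. Dio3os passed the filter on low values only through the Ctrlv2 libraries of day 8, as its levels in every other group were too low. The filter thus favoured a negative difference for Dio3os at day 8, so the shared sign is no independent evidence on Dio3. The annotated row of Dio3os does not overlap that of Dio3.

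Rtl1 encodes a protein descended from a retrotransposon and is needed for the capillaries of the placenta. Its level at day 8 was 0.344, 0.3215 and 0.285 FPKM in Arf-B libraries, 0.238, 0.3125 and 0.228 in Arf-C, and 0.765, 0.8 and 0.733 in Ctrlv2. At day 0 it was 0.568, 0.684 and 0.496 FPKM in Arf-B libraries, 0.6155, 0.523 and 0.493 in Arf-C, and 0.468, 0.605 and 0.507 in Ctrlv2. The lines overlapped at day 0 and parted at day 8, where all 3 Ctrlv2 libraries lay above all Arf libraries. Rtl1 fell with time in the Arf-B line (log2 -0.26, adjusted p = 0.00471) and the Arf-C line (-0.29, adjusted p = 0.00218), and rose in Ctrlv2 (0.21, adjusted p = 0.0182). The rise in Ctrlv2 was not called without Ctrlv2 day 0 replicate 1 (adjusted p = 0.0739) or replicate 3 (0.0544), nor in a fit on these groups alone (0.0698). Against Ctrlv2 at day 8 the log2 difference was -0.42 in Arf-B (adjusted p = 0.000352) and -0.49 in Arf-C (9.75e-05), with mean FPKM 0.414 times that of Ctrlv2 in Arf-B and 0.338 times in Arf-C. Rtl1 rests on 23 to 125 reads per library. Antisense transcription across Rtl1 hosts the microRNAs shown above, and since the sources used here do not give the strand used in counting, its reads cannot be told apart from those of Rtl1.

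Meg3 is a long noncoding RNA whose promoter lies next to the imprinting control region. At day 8 its level was 18.6, 17.2 and 17.15 FPKM in Arf-B libraries, 16.8, 15.4 and 14.6 in Arf-C, and 19.5, 15.6 and 16.9 in Ctrlv2. At day 0 it was 11.2, 9.5 and 10.7 FPKM in Arf-B libraries, 11.6, 9.565 and 9.51 in Arf-C, and 6.04, 7.59 and 6.44 in Ctrlv2. Each Arf line overlapped Ctrlv2 at day 8, where the Arf-B libraries lay above the Arf-C libraries, while at day 0 both Arf lines lay above all Ctrlv2 libraries. The day 0 difference was 0.58 in Arf-B (SE 0.0977, adjusted p = 0.00021) and 0.55 in Arf-C (0.000329), or 1.57 and 1.53 times the Ctrlv2 mean. At day 8 it was 0.03 in Arf-B (95% interval -0.18 to 0.24) and -0.14 in Arf-C (-0.35 to 0.07), neither called. Meg3 rose with time by 0.70 in Arf-B (adjusted p = 9.37e-06), 0.57 in Arf-C (8.39e-05) and 1.26 in Ctrlv2 (9.53e-09).

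Rian, a long noncoding RNA that hosts C/D box small nucleolar RNAs, changed side between the days. At day 0 its level was 18.6, 19.3 and 17.7 FPKM in Arf-B libraries, 17.6, 15.5 and 16.4 in Arf-C, and 11.6, 13.5 and 11.95 in Ctrlv2. At day 8 it was 30.55, 27.5 and 26.4 FPKM in Arf-B libraries, 25.8, 24.1 and 21.7 in Arf-C, and 36.8, 35.1 and 35.6 in Ctrlv2. All 3 Ctrlv2 libraries were below the Arf libraries at day 0 and above them at day 8. At day 0 Rian was higher by 0.55 in Arf-B (SE 0.0742, adjusted p = 2.59e-05) and by 0.39 in Arf-C (0.000513). The day 8 difference was -0.34 in Arf-B (adjusted p = 0.00237) and -0.57 in Arf-C (2.6e-05), and in Arf-B it was not called with FPKM scaled to the same sum (0.0648). With time Rian rose by 0.58 in Arf-B (adjusted p = 3.95e-06), 0.51 in Arf-C (1.71e-05) and 1.47 in Ctrlv2 (4.99e-11).

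Mirg, the host of a microRNA cluster, varied least between groups. At day 8 its level was 2.86, 2.6 and 2.24 FPKM in Arf-B libraries, 2.79, 2.04 and 1.98 in Arf-C, and 3.16, 2.83 and 3.11 in Ctrlv2. At day 0 it was 2.62, 3.25 and 2.9 FPKM in Arf-B libraries, 2.77, 3.15 and 2.78 in Arf-C, and 2.27, 2.4 and 1.95 in Ctrlv2. Every Arf library exceeded every Ctrlv2 library at day 0, with log2 differences of 0.29 for Arf-B (SE 0.1, adjusted p = 0.0296) and 0.29 for Arf-C (0.0307). The Arf-B call was lost without Arf-B replicate 2 (0.124) or 3 (0.0602), or Ctrlv2 replicate 1 (0.0527) or 3 (0.125). The Arf-C call was lost without Arf-C replicate 2 (0.104) or 3 (0.0507), or Ctrlv2 replicate 1 (0.0534) or 3 (0.128). Both were lost without the filter (0.0575 for Arf-B, 0.0597 for Arf-C) and with thinned reads (0.0845 for Arf-B, 0.0508 for Arf-C), and for Arf-B in a fit on these groups alone (0.0537). At day 8 the Arf-C difference was -0.31 (adjusted p = 0.0257), lost without Arf-C replicate 2 (0.0995) or 3 (0.109), or Ctrlv2 replicate 1 (0.0719) or 3 (0.068), without the filter (0.05), with the same sum (0.0572) and with these groups alone (0.0757). In Arf-B it was -0.18 (adjusted p = 0.191). With time Mirg fell by 0.26 in Arf-C (adjusted p = 0.0304) and rose by 0.33 in Ctrlv2 (0.00767). The fall in Arf-C was not called without Arf-C day 0 replicate 2 (0.108), day 8 replicate 2 (0.112) or day 8 replicate 3 (0.129), without the filter (0.0567), with these groups alone (0.0687) or with the same sum (0.287). In Arf-B its change of -0.14 was not called (adjusted p = 0.238), and it was 0.03 with FPKM scaled to the same sum.

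**Figure D2:**
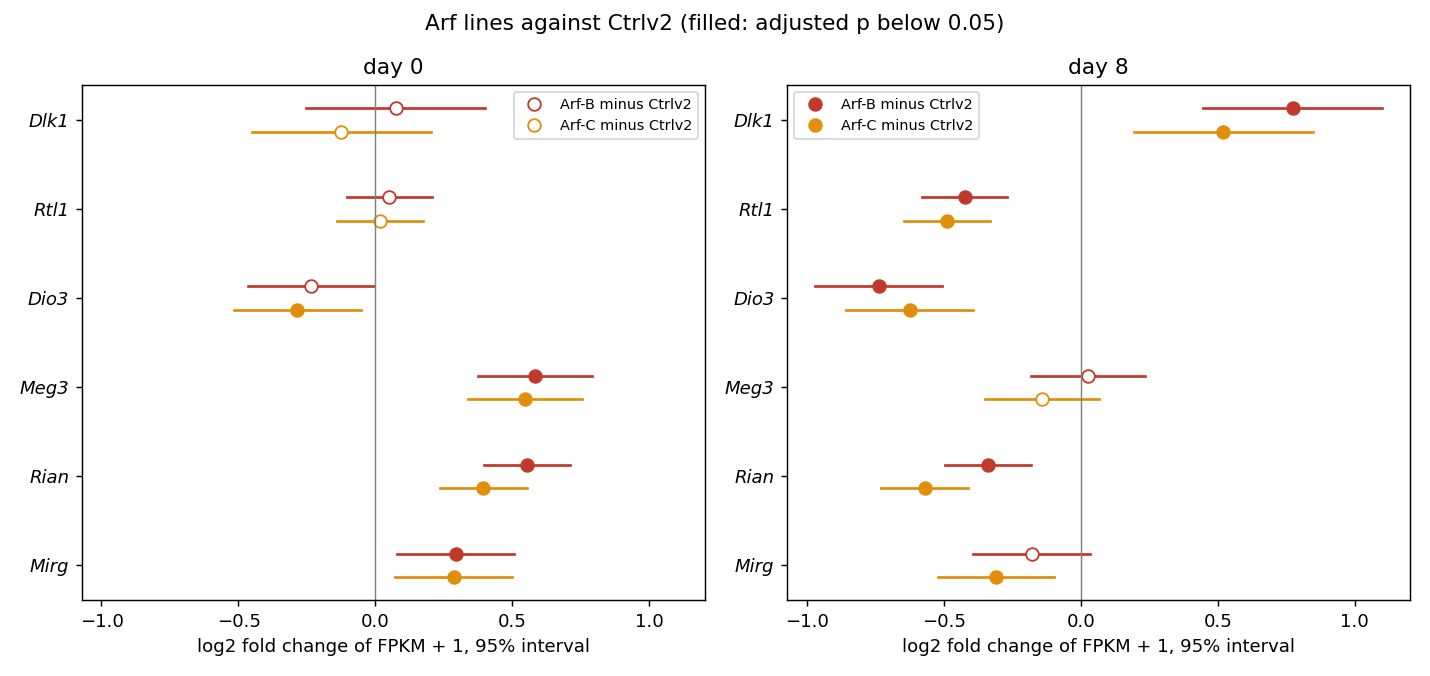
Log2 fold change (FPKM + 1) of each transcript for the Arf-B line and for the Arf-C line against Ctrlv2 at day 0 (left) and day 8 (right), with 95% intervals. Filled points have an adjusted p below 0.05. Meg3, Rian and Mirg lie to the right of 0 at day 0, while at day 8 Dlk1 lies to the right and Rtl1, Dio3 and Rian to the left.

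The day response itself was compared between lines. Against Ctrlv2, all 6 transcripts had a called difference in Arf-B (33.5% of all genes), 1 higher (17.5%) and 5 lower (16.1%). In Arf-C 5 had one (38.3%), 1 higher (19.4%) and 4 lower (18.9%). For Dlk1 the response was larger in the Arf lines, by 0.70 in Arf-B (SE 0.217, adjusted p = 0.021) and 0.65 in Arf-C (0.028). For the other transcripts it was smaller or of the opposite sign on the log2(FPKM + 1) scale. The ratio of mean Dio3 FPKM, day 8 over day 0, was 3.26 in Arf-B, 5.395 in Arf-C and 4.19 in Ctrlv2. By that ratio the Dio3 response was not smaller in Arf-C than in Ctrlv2. The difference for Rian was -0.89 in Arf-B (adjusted p = 1.31e-05) and -0.96 in Arf-C (5.22e-06), for Meg3 -0.55 in Arf-B (0.00598) and -0.69 in Arf-C (0.00112), and for Rtl1 -0.47 in Arf-B (0.00241) and -0.50 in Arf-C (0.00132). For Mirg it was -0.47 in Arf-B (0.0175) and -0.59 in Arf-C (0.00369), and for Dio3 -0.50 in Arf-B (0.0197) and -0.34 in Arf-C (0.0957, not called).

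The Dlk1 differences depend on the scale and on single libraries. In Arf-B the call was lost without Arf-B day 8 replicate 1 (adjusted p = 0.0553) or Ctrlv2 day 8 replicate 2 (0.0582), with a pseudocount of 0.1 (0.105) and with voom on whole reads (0.518). In Arf-C it was lost without Arf-C replicate 1 of day 0 (0.0543) or of day 8 (0.0674), and without Ctrlv2 day 0 replicate 3 (0.0534) or day 8 replicate 2 (0.0769). It was lost there also without the filter (0.0617), with voom (0.204) and in a fit on these groups alone (0.051). The Dio3 difference in Arf-B was lost with a pseudocount of 0.1 (0.289), with voom (0.602), with reads thinned to the smallest library (0.28) and without Ctrlv2 day 0 replicate 2 (0.0527). In Arf-C it was called only without Ctrlv2 day 8 replicate 2 (0.0493), of the settings run, and its sign turned with voom (0.31).

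**Figure D3:**
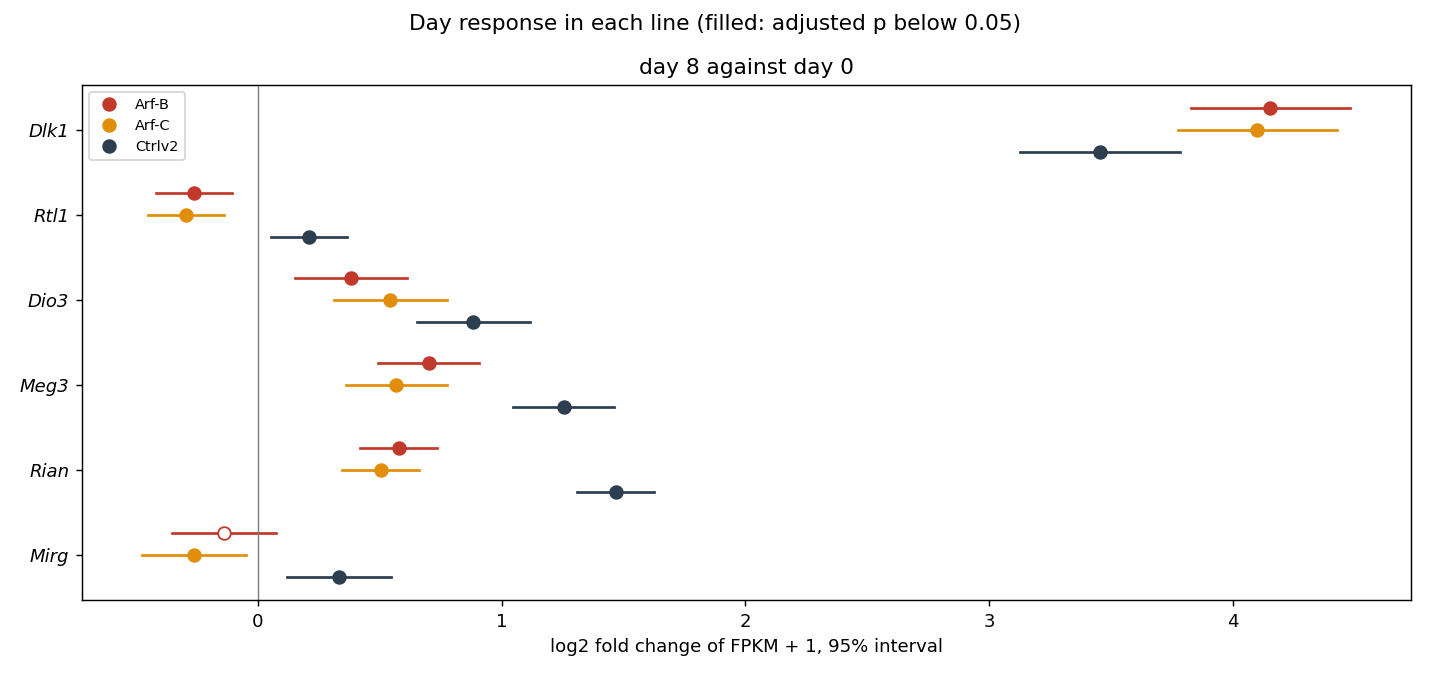
Log2 fold change (FPKM + 1) of day 8 against day 0 in Arf-B, Arf-C and Ctrlv2, with 95% intervals and filled points for an adjusted p below 0.05. Ctrlv2 lies to the right of both Arf lines for all transcripts except Dlk1, and the Arf points of Rtl1 lie left of 0.

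Between Arf-B and Arf-C limma called 0 of the 6 at day 0 (0.343% of all genes, 0.105% higher and 0.238% lower). It called 0 at day 8 (0.0581%, 0.0349% higher and 0.0233% lower) and 0 in the day response (0.0233%, 0.0116% higher and 0.0116% lower). At an unadjusted p below 0.05, 1 transcript passed at each day, Rian in both cases, and 0 in the day response; limma voom on whole reads also called 0. Rian at day 8 differed by 0.23 between Arf-B and Arf-C (95% interval 0.07 to 0.39, adjusted p = 0.722).

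Some markers of other cells also differed between the lines. At day 8 the summed pluripotency and parietal endoderm levels of the Arf lines and Ctrlv2 stood far apart, as given above, and 9 mesenchyme and smooth muscle markers summed to 17.3 to 18.4 FPKM in Arf-B, 16.3 to 17.3 in Arf-C and 29.7 to 41.4 in Ctrlv2. Most of that gap was Acta2, a smooth muscle actin, at a mean of 1.62 FPKM in Arf-B, 1.36 in Arf-C and 15.75 in Ctrlv2, while Twist1, a mesenchyme factor, was at 6.305, 5.93 and 6.23 FPKM in Arf-B, Arf-C and Ctrlv2. Skeletal muscle markers summed to 1.22 to 1.79 FPKM in Arf-B, 1.25 to 1.45 in Arf-C and 14.5 to 16.8 in Ctrlv2, of which Acta1, a skeletal actin, made up 1.51, 1.245 and 15.4 FPKM in Arf-B, Arf-C and Ctrlv2 on average. The muscle regulators Myod1 and Myog were near 0 in each line, at 0.0551 FPKM or less on average, and Myf5 had no reads in Arf-C or Ctrlv2. Definitive endoderm markers summed to 172.8 to 192 FPKM in Arf-B, 159.4 to 203.8 in Arf-C and 118.7 to 131.3 in Ctrlv2, a sum carried by Cldn6, an epithelial junction protein, at a mean of 159.1, 152.7 and 83.9 FPKM in Arf-B, Arf-C and Ctrlv2. The endoderm factors Gata4, at 6.39 FPKM in Arf-B, 7.005 in Arf-C and 25.05 in Ctrlv2, and Sox17, at 0.233, 0.2565 and 1.17 FPKM in Arf-B, Arf-C and Ctrlv2, had lower means in the Arf lines. Foxa1, another endoderm factor, was at 10.6 FPKM in Arf-B, 10.8 in Arf-C and 3.625 in Ctrlv2. At day 0 parietal endoderm markers summed to 45.9 to 55.8 FPKM in Arf-B, 46.9 to 52.8 in Arf-C and 129.5 to 149.1 in Ctrlv2. The 5 feeder fibroblast markers summed to 2.325 to 2.9 FPKM in Arf-B, 1.815 to 2.27 in Arf-C and 14.6 to 16.4 in Ctrlv2 at day 0. That sum was almost wholly Thy1, at a mean of 2.59 FPKM in Arf-B, 2.015 in Arf-C and 15.75 in Ctrlv2, since S100a4, Dcn and Lum had no reads and Fap was at or near 0. At day 8 hepatoblast markers summed to at most 0.584 FPKM in Arf-B, 0.226 in Arf-C and 1.19 in Ctrlv2, neural markers to at most 9.56, 8.66 and 11.2 FPKM in Arf-B, Arf-C and Ctrlv2, and trophoblast markers to at most 6.7, 7.2 and 7.525 FPKM in Arf-B, Arf-C and Ctrlv2, with no reads on Tpbpa. Single markers in these sums went different ways. Among neural markers Tubb3 averaged 4.78, 4.27 and 7.91 FPKM in Arf-B, Arf-C and Ctrlv2, and Pax6 2.71, 2.16 and 0.891. Among trophoblast markers Gata3 averaged 3.28, 3.58 and 4.07 FPKM in Arf-B, Arf-C and Ctrlv2, and Cdx2 0.81, 0.962 and 0.217. The part of all these cell markers in the differences of the 6 transcripts was not tested. In bulk RNA fewer cells that express a gene and less RNA per cell cannot be told apart.

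Because all 6 are read in the same library, ratios between them compare transcripts without the scaling of libraries. Rian over Meg3 at day 8 was 1.59 ± 0.0497 in Arf-B, 1.53 ± 0.0388 in Arf-C and 2.08 ± 0.18 in Ctrlv2 (SD, n = 3), with no overlap between either Arf line and Ctrlv2. Dlk1 over Meg3 at day 8 was 1.345 ± 0.128 in Arf-B, 1.28 ± 0.262 in Arf-C and 0.779 ± 0.0773 in Ctrlv2, again with no overlap. Rtl1 over Meg3 was 0.0179 in Arf-B, 0.0167 in Arf-C and 0.04455 in Ctrlv2 at day 8, and 0.05625 in Arf-B, 0.0532 in Arf-C and 0.07865 in Ctrlv2 at day 0. Dio3 over Dlk1 at day 8 was 0.0215 in Arf-B, 0.0328 in Arf-C and 0.112 in Ctrlv2. Mirg over Meg3 was lower at day 8 than at day 0 in each line, with log2 differences of -0.94 in Arf-B, -0.98 in Arf-C and -0.91 in Ctrlv2. Of 42 such comparisons 30 showed no overlap, at the smallest p that an exact two-sided permutation test of 3 against 3 libraries can give, 0.1 (adjusted p = 0.14), so none can reach 0.05. The comparisons share libraries, and most share Meg3. No such count was made for other pairs of genes, so it does not set the domain apart.

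**Figure D4:**
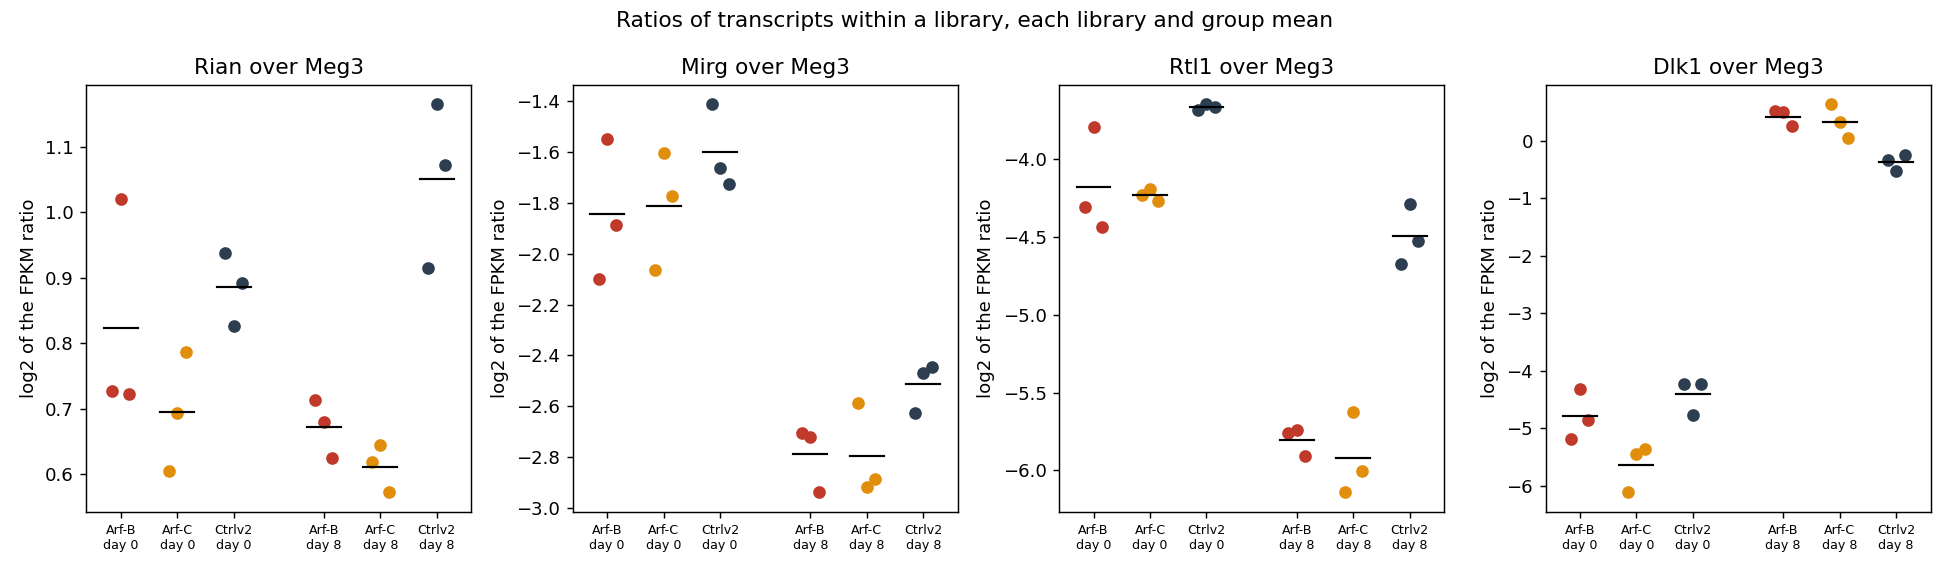
Log2 ratios of FPKM within each library (points) with group means (bars) for Rian, Mirg, Rtl1 and Dlk1 over Meg3. At day 8 the Arf libraries lie below Ctrlv2 for Rian and Rtl1 and above it for Dlk1.

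The interval from Begain to Ppp2r5c holds 127 rows with the 6 transcripts included, of which 64 had any read and 33 were tested, 27 of them other rows. Of 69 microRNA hairpin rows 38 had no read in any library and no row exceeded 22 reads in a library, and of 23 small nucleolar RNA rows 14 had none and no row exceeded 30. The hairpin rows inside Rtl1, 7 in number, had no reads at all. Tested hairpins rest on so few reads that their calls, such as Mir369 with 7 reads over all libraries, are not described further. The pseudogene Gm3379, with 792 reads over all libraries, was at 2.62 ± 1.23 FPKM in Arf-B, 1.94 ± 0.708 in Arf-C and 4.635 ± 0.548 in Ctrlv2 at day 8 (SD, n = 3), lower than in Ctrlv2 with log2 differences of -0.70 for Arf-B (adjusted p = 0.0306) and -0.96 for Arf-C (0.00475). DQ267102, a small nucleolar RNA inside Rian with 207 reads over all libraries, was higher at day 8 in Arf-B by 1.79 (0.0116). Its sign there was opposite to that of its host, but the call rests on 53 reads in Arf-B and 7 in Ctrlv2. In Arf-C DQ267102 was not called (0.91, 0.175). Gm25357, another inside Rian with 60 reads over all libraries, was higher at day 8 in Arf-C by 1.53 (0.0332). That call rests on 18 reads in Arf-C and 4 in Ctrlv2, and Gm25357 was not called in Arf-B (0.79, 0.271). The other tested rows of the interval are Mir3070a, Mir341, Mir541, Mir665, Gm27596, Mir493, Mir3070b, Mir1188, Gm24564, Gm26945, Gm23600, Mir758, Mir329, Mir1193, Mir544, Mir453, Mir3072 and Gm6988. Rows inside Rian (4 hairpins and 13 small nucleolar RNAs) and Mirg (15 hairpins) overlap their hosts, and the counting could split reads among them.

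Outside the members, Gm34081, a long noncoding RNA on the minus strand between Dlk1 and Meg3 (chr12:109493529-109516740), was expressed mainly at day 0. Its mean FPKM at day 0 was 2.24 ± 0.112 in Arf-B, 1.72 ± 0.384 in Arf-C and 1.17 ± 0.231 in Ctrlv2 (SD, n = 3), and at day 8 it was 0.0427 in Arf-B, 0.349 in Arf-C and 0 in Ctrlv2, with no read in its 3 libraries. It was higher than in Ctrlv2 at day 0 by 0.58 in Arf-B (adjusted p = 0.000332) and by 0.32 in Arf-C (0.0198). At day 8 it was also higher in Arf-C, by 0.43 (0.00424), where Meg3 was not called and Rian was lower. That day 8 call rests on only 12 reads over the 3 Arf-C libraries. The flanking Begain was higher at day 8 than at day 0 in Arf-B (0.57, adjusted p = 0.00161) and Arf-C (0.54, 0.00233), and was not called in Ctrlv2. Ppp2r5c, at the other flank, fell with time in each line, with log2 changes of -0.30 in Arf-B, -0.42 in Arf-C and -0.36 in Ctrlv2, and passed the test in neither Arf line against Ctrlv2 at day 0 or day 8. Gm19605, antisense within Ppp2r5c, was higher than in Ctrlv2 at day 8 in Arf-B (0.48, adjusted p = 0.00329) and Arf-C (0.46, 0.00451). Of 9 tested flanking genes of the domain, Arf-B at day 8 had 1 higher (16.3% of all genes) and 0 lower (16.9%) than in Ctrlv2, and Arf-C had 2 higher (16.8%) and 0 lower (16.8%), with medians of 0.03 for Arf-B and 0.11 for Arf-C beside 0.01 over all genes.

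**Figure D5:**
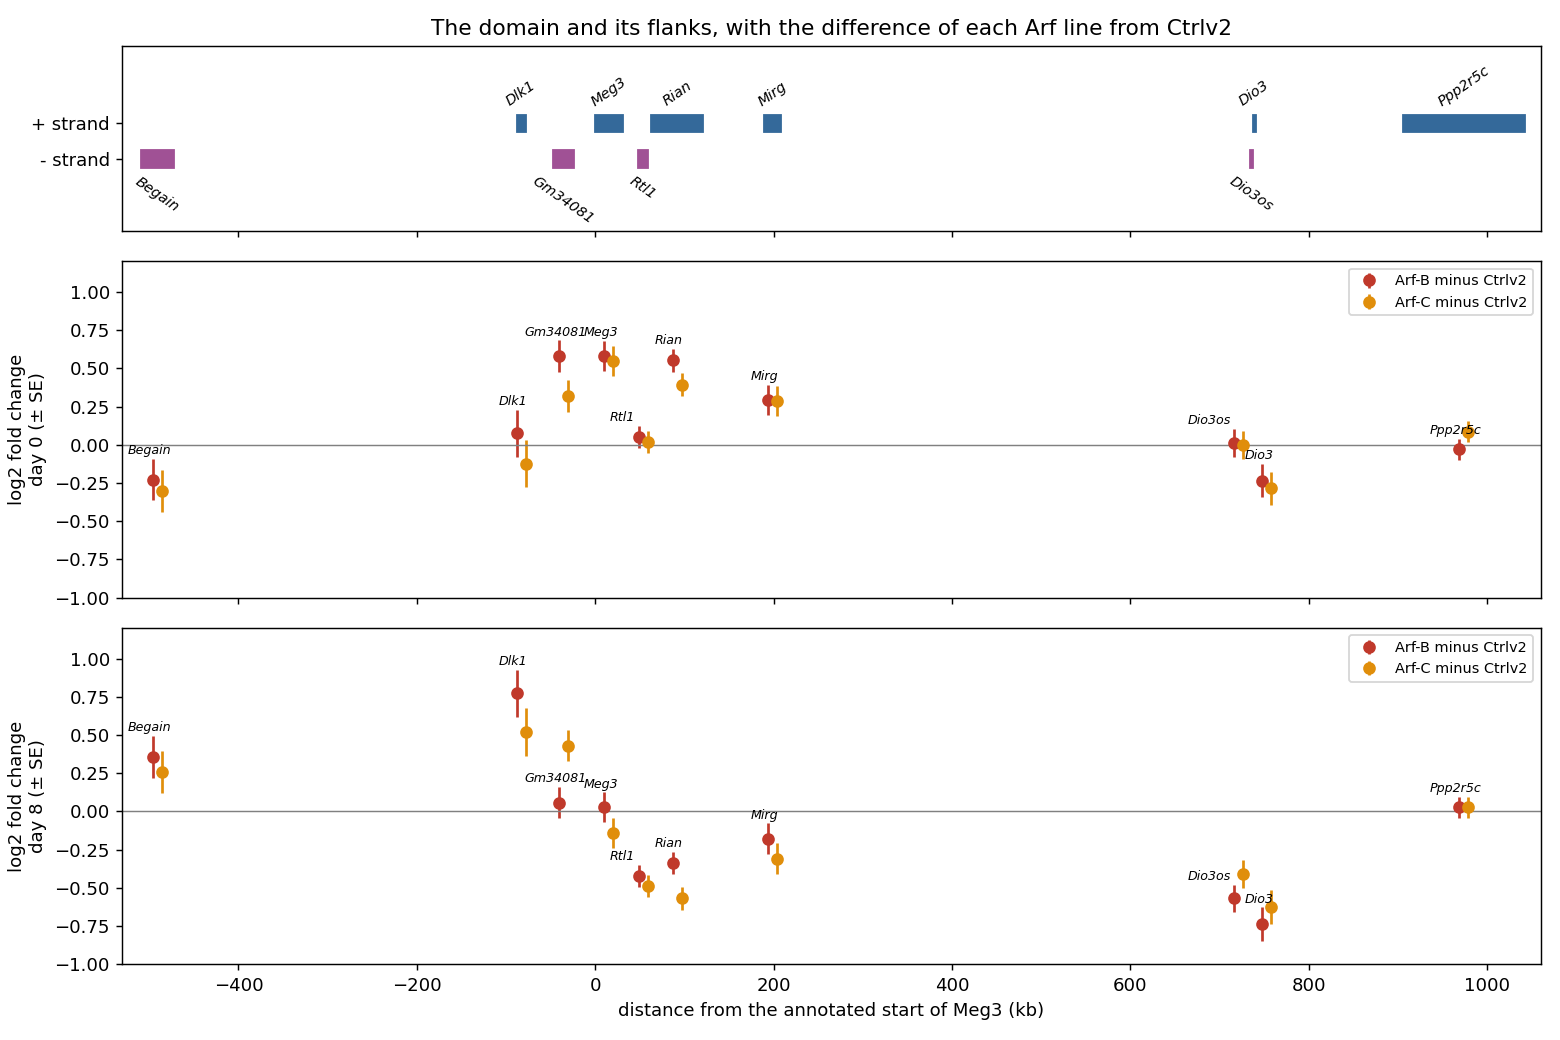
The domain drawn to scale along the distance from the annotated start of Meg3, genes on the plus strand above and on the minus strand below, with log2 fold changes (± SE) of Arf-B and Arf-C against Ctrlv2 at day 0 and day 8 at the middle of each gene, the 2 lines side by side and Dio3os and Dio3 moved apart. At day 0 the larger positive values sit at Gm34081, Meg3, Rian and Mirg, and at day 8 the negative values at Rtl1, Rian, Mirg, Dio3os and Dio3.

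Other imprinted genes and related pathways were counted in the same way. The counts at day 8 against Ctrlv2 stand beside 16.3% of all genes higher and 16.9% lower in Arf-B, and 16.8% higher and 16.8% lower in Arf-C, and several are near those shares. Of 13 tested maternally expressed genes elsewhere, Arf-B at day 8 had 2 higher and 5 lower than in Ctrlv2 (median -0.17), and Arf-C had 2 higher and 3 lower (-0.05), beside 0.01 over all genes. Of 22 paternally expressed genes, 5 were higher and 7 lower in Arf-B (median -0.05), while Arf-C had 4 higher and 7 lower (-0.05). Peg10, also a retrotransposon descendant, stood at 4.3 ± 0.348 FPKM in Arf-B, 14.5 ± 1.45 in Arf-C and 407.3 ± 45.7 in Ctrlv2 at day 8, with log2 differences of -6.26 for Arf-B (adjusted p = 7.58e-16) and -4.72 for Arf-C (5.71e-14). H19, a noncoding RNA of another imprinted domain, was at 4.14 ± 0.469 FPKM in Arf-B, 4.28 ± 0.601 in Arf-C and 17.3 ± 3.75 in Ctrlv2, with a log2 difference of -1.78 in Arf-C (adjusted p = 3.9e-08). Peg3, which encodes a zinc finger protein, averaged 63.1 FPKM in Arf-B, 60.1 in Arf-C and 57.6 in Ctrlv2 at day 8 and was higher than in Ctrlv2 at day 0, by 0.84 in Arf-B (adjusted p = 3.24e-05) and 0.69 in Arf-C (0.000193). With time 14 of the 22 genes of the paternal list rose (32.9% of all genes) and 2 fell (33.8%) in Arf-B, 13 rose (32.8%) and 2 fell (33.8%) in Arf-C, and 16 rose (33.9%) and 4 fell (34.4%) in Ctrlv2. That list also holds Zim1 and Dhcr7, which are known as maternally expressed.

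A list of factors that maintain imprints or act at the control region, with proteins of DNA methylation, demethylation and Polycomb among them, had 19 tested genes. With time 12 fell (33.8% of all genes) and 3 rose (32.9%) in Arf-B, 11 fell (33.8%) and 4 rose (32.8%) in Arf-C, and 12 fell (34.4%) and 4 rose (33.9%) in Ctrlv2. Zfp57, a zinc finger protein that binds methylated imprinting regions, stood at 44.4 ± 4.33 FPKM in Arf-B, 43.5 ± 6.34 in Arf-C and 26.3 ± 1.59 in Ctrlv2 at day 8, higher in the Arf lines by 0.73 (adjusted p = 8.73e-05) and 0.70 (0.000137). Its partner Trim28 was also higher, by 0.35 in Arf-B (0.00138) and 0.39 in Arf-C (0.000607). Dnmt3l, a cofactor of DNA methylation, differed at day 8 by -0.997 for Arf-B (4.33e-08) and -1.11 for Arf-C (1.33e-08). Jarid2, a Polycomb cofactor, differed at day 0 by -0.75 for Arf-B (2.37e-06) and -0.96 for Arf-C (1.45e-07).

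Notch receptors, ligands and Dlk1 processing factors are the pathway nearest to Dlk1. Of 12 tested, Arf-B at day 8 had 3 higher (16.3% of all genes) and 1 lower (16.9%) than in Ctrlv2, and Arf-C had 3 higher (16.8%) and 3 lower (16.8%), with medians of -0.01 in each; the counts of the lists that follow stand beside the same shares. Jag2, a Notch ligand, was higher by 0.63 in Arf-B (adjusted p = 0.000172) and 0.68 in Arf-C (8.87e-05), and Hes1, a Notch target, by 0.36 (0.00335) and 0.31 (0.00993). Thyroid hormone genes, the pathway of Dio3, gave 3 higher and 2 lower of 10 in Arf-B and 1 higher and 2 lower in Arf-C at day 8. Thra, a thyroid hormone receptor, was higher by 0.47 in Arf-B (0.00317) and 0.40 in Arf-C (0.00878). Of 8 tested genes of retrotransposon origin other than Rtl1, 1 was higher and 2 lower in each Arf line at day 8. Of 10 microRNA processing genes, Arf-B had 4 higher and 0 lower than in Ctrlv2 at day 8, and Arf-C had 3 higher and 1 lower, among them Dicer1 at 10.5 ± 0.639, 10.4 ± 0.227 and 7.68 ± 0.176 FPKM in Arf-B, Arf-C and Ctrlv2. Of the 4 proteins of C/D box small nucleolar RNA particles all 4 were called lower with time in each line. The share of all genes called lower with time was 33.8% in Arf-B, 33.8% in Arf-C and 34.4% in Ctrlv2. Nop56 differed from Ctrlv2 at day 8 by -0.49 in Arf-B (4.95e-06) and -0.51 in Arf-C (3e-06).

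Across the 18 libraries Meg3 and Rian varied together most (Pearson r 0.95), followed by Dlk1 with Meg3 (0.88) and with Rian (0.84). The r of Dlk1 with Rtl1 was negative (-0.43), although both were called higher with time in Ctrlv2. These values describe 6 groups of 3 libraries that share day and line, so they carry no p. Genes whose log2 levels were most like each transcript, taken as the 5 highest r over the same libraries, were led for Dlk1 by Hoxb6 (0.998), Nr2f1 (0.998) and Nr2f2 (0.997), and included Zim1 (0.997). For Meg3 they were led by Tulp4 (0.978) and Ttc3 (0.977), for Rian by Kdm5a (0.973) and Mdm2 (0.968), and for Rtl1 by Ate1 (0.957) and Hspb8 (0.927). For Dio3 they were led by Wbp1l (0.97), and for Mirg no gene exceeded Tmed1 (0.834).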

How the data were processed

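RNA-seq of 18 libraries (6 groups of line and day, 3 libraries each) was used as FPKM. The deposited table holds FPKM made by the authors, per the file headers with gene lengths and coordinates; the submitters' processing notes name HISAT2, featureCounts, DESeq2 and mm10, without versions or roles. Each FPKM multiplied by gene length and the implied library size was a whole number of reads for 413772 of 413772 values above 0 (100%, tolerance 0.001 reads), and the implied library size lay within 0.524% of a median-ratio size. Depth was 10432590 to 33311220 reads per library.

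Values were tested as log2(FPKM + 1), for genes that reached 0.5 FPKM in 3 or more libraries, with limma 3.58.1 (trend, robust; statmod 1.5.0, R 4.3.3) over all 6 groups; a fold change on this scale understates that of low genes. Alternatives were voom on the recovered reads, a pseudocount of 0.1, no filter or a mean of 1 FPKM, 2 other scalings, the compared groups alone, a replicate block, thinned reads and each library left out. Ratios used an exact permutation test (scipy 1.17.1, Python 3.11.15). The procedure was tested on simulated data. Named genes are the members, the other tested rows of the interval, at most 4 called genes of each list (those of highest mean FPKM) and 5 most similar genes per member. The members and lists were chosen with earlier results of these data known. Sequences are from RefSeq on GRCm38.p6; member positions matched GENCODE vM21.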

Additional observations from a re-analysis of the deposited data

Results flagged for a closer look

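The response to 8 days of differentiation differed between an Arf line and Ctrlv2 by a test of that difference (limma interaction, adjusted over 17200 genes) in 11 results. In Arf-B minus Ctrlv2 the log2 differences were 0.70 for Dlk1, -0.55 for Meg3, -0.89 for Rian, -0.47 for Mirg, -0.47 for Rtl1 and -0.50 for Dio3. In Arf-C minus Ctrlv2 they were 0.65 for Dlk1, -0.69 for Meg3, -0.96 for Rian, -0.59 for Mirg and -0.50 for Rtl1. Both sets use the same Ctrlv2 libraries. With limma voom on whole reads 4 of the 6 transcripts were called in each set. The calls lost there were Dlk1 in Arf-B (adjusted p = 0.518) and in Arf-C (0.204), and Dio3 in Arf-B (0.602). Groups of 3 libraries were not searched for outlying samples.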

How the results depend on the processing

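The 72 results of the 6 transcripts were recomputed under 27 other settings, 18 of which left out 1 library. Of 1910 values 1819 kept direction and side of the threshold, 64 lost a call, 5 gained one and 22 changed sign, 0 of the last called in either fit. Thinning of reads to the smallest library was chosen after seeing the data.

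Transcripts called in Arf-C against Ctrlv2 at day 0 numbered 4, and 2 without the filter or with thinned reads. With a filter on a mean of 1 FPKM, which leaves Rtl1 and Dio3 untested, the day response in Arf-B had 3 of 5, Arf-B at day 8 had 2 of 4 and Arf-C at day 8 had 3 of 5. With a fit on the compared groups alone, Arf-C at day 8 had 3 of 5, with the calls of Dlk1 and Mirg lost. The Arf-B response also had 3 of 5 in such a fit, with no call lost among the transcripts tested. There Rtl1 and Dio3 reached 0.5 FPKM in fewer than 3 of the Arf-B libraries and were left untested. Between Arf-B and Arf-C, all-gene calls in the day response numbered 4, against 11 (pseudocount 0.1), 12 (no filter), 10 (mean of 1 FPKM), 7 (median-ratio), 11 (same sum) and 11 (voom). At day 8 they numbered 10, against 26 (no filter), 16 (same sum) and 5 (groups alone), and at day 0 59, against 168 (voom), 10 (groups alone) and 34 (thinned). Leaving out 1 library gave 18 to 85 at day 0, 3 to 9 in the response, and 2 to 4 transcripts in Arf-C at day 0. The cause of the remaining changes was not tested.

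Sign changes were as follows. Between Arf-B and Arf-C, the Dlk1 response was -0.3951 with a pseudocount of 0.1 and -0.6078 with voom. Mirg in the Arf-B response was 0.03 with the same sum, and the Dio3 response of Arf-C minus Ctrlv2 was 0.3127 with voom. Thinned reads gave -0.0027 for Rtl1 in Arf-C at day 0, and -0.031 for Mirg at day 0 and -0.0042 for the Rtl1 response between Arf-B and Arf-C. Leaving out 1 library gave -0.0166 to 0.053 for Rtl1 in Arf-C at day 0 and -0.0407 to 0.11 for Meg3 in Arf-B at day 8. Between Arf-B and Arf-C it gave, at day 0, -0.0111 to 0.1216 for Meg3, -0.0518 to 0.0633 for Mirg and -0.011 to 0.0743 for Rtl1, and in the response -0.0094 to 0.0759 for Rtl1 and -0.1274 to 0.2481 for Dlk1.

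Replicate numbers did not pair libraries: 3 of 45 same-numbered pairs correlated above 0.1 (range -0.25 to 0.2). With the replicate block 0 calls of the 6 transcripts changed, leaving the day responses at 5 calls for Arf-B, 6 for Arf-C and 6 for Ctrlv2. Scaling to the same sum put the all-gene median at day 8 at 0.0971 for Arf-B and 0.0733 for Arf-C. Higher calls then made up 69% for Arf-B, against 49%, and 63.6% for Arf-C, against 50%. Dio3, Dio3os and Rtl1 rest on few reads, which limits their precision.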
